A study of Mus musculus with 71 samples.

Results

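The forkhead box (Fox) genes encode transcription factors that share a forkhead DNA-binding domain, and their RNA was followed in mouse embryonic stem (ES) cells that carry, lack or regain the Polycomb enzyme EZH2. Members were chosen by name: every gene of the count files whose symbol is Fox followed by a subfamily letter from a to s, a number and at most 1 further letter. The pattern matched 44 of 24222 genes, and 28 of the 44 passed the filter on low counts that left 14145 genes for testing. Sequencing of polyA RNA covered 3 groups of 3 libraries, all from C57BL/6 ES cells kept on gelatin in 2i, a serum-free medium with inhibitors of MEK and GSK3. Rescue cells are labelled as re-expressing wild-type EZH2, dKO cells as lacking both Ezh1 and Ezh2, and WT cells as wild type. A list of Suz12 peaks came from wild-type ES cells of another background, 129B6F1, in 1 sample. The labels give neither the driver of the reintroduced EZH2 nor whether the dKO or rescue cells are 1 clone. They also do not say that replicates are separate cultures, so p-values measure the spread between these libraries only, which may be technical.

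Fox proteins bind DNA through a winged-helix fold, and many of them direct the choice of a lineage in the embryo: FoxA in endoderm, and FoxC and FoxF in mesoderm and mesenchyme. Others work in most dividing cells, such as FoxO under insulin and Akt signalling and FoxM1 in the entry into mitosis. Polycomb repressive complex 2 (PRC2), with EZH1 or EZH2 as its enzyme and Suz12 as its scaffold, methylates lysine 27 of histone H3, and its binding in ES cells is known for covering the CpG-rich starts of silent developmental genes.

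Libraries held between 12457622 and 36009529 counts. Levels are given as CPM, counts scaled by the library total and its TMM factor, and a count of 0 allowed a level of up to between 0.0857 and 0.226 CPM in a library, with 3 counts as the limit and covering counting error only. Ezh1 was at 2.89, 2.33 and 3.42 CPM in rescue, 2.34, 1.83 and 1.80 CPM in dKO and 53.4, 48.4 and 47.9 CPM in WT, so it was low in rescue as well as in dKO. Ezh2 was at 555, 576 and 549 CPM in rescue, 192, 191 and 214 CPM in dKO and 308, 314 and 310 CPM in WT. Gene-level counts can show neither a deleted exon nor which copy of Ezh2 an RNA came from. On the second principal component dKO replicate 3 stood at -12.3, against 7.46 and 6.42 for dKO replicates 1 and 2. Of 14 ES cell markers, 9 fell, 3 rose and 2 did not pass in dKO against WT, and they summed to 10000 to 10200 CPM in rescue, 7330 to 7420 CPM in dKO and 8400 to 8560 CPM in WT, with none at 0. Of 10 trophoblast markers 8 were tested and 5 rose, 1 fell and 2 did not pass, with sums of 154 to 162 CPM in rescue, 250 to 255 CPM in dKO and 216 to 229 CPM in WT. Much of that sum was Tfap2c, at 84.3 to 90.1, 140 to 169 and 161 to 173 CPM in rescue, dKO and WT. The rest summed to 67.2 to 71.6 CPM in rescue, 82.6 to 115 CPM in dKO and 55.1 to 56.4 CPM in WT, with rescue above WT. Of 8 blood markers 3 were tested and all 3 rose, with sums of 5.01 to 5.88, 7.53 to 12.3 and 2.38 to 2.96 CPM in rescue, dKO and WT, and Hbb-bt was at 0 throughout. The part of such cells in the Fox results was not tested, and in these bulk samples fewer cells of a type and less RNA per cell cannot be told apart.

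Of the 44 Fox genes, 34 (77.3%) had a Suz12 peak within 1 kb of the gene, where 24.4% of 24089 placed genes and 26.6% of 20493 protein-coding genes had one. The family gave 34 again with the gene alone or with 5 kb either side, 29 (65.9%, all genes 13.7%) when only peaks wider than the list's median of 1032 bp counted, and 21 of the 28 members with a RefSeq start site (75.0%, all genes 20.5%) within 1 kb of that site. These shares describe 1 peak list of 7480 peaks with no replicate. The widest peak at a Fox gene was 8043 bp at Foxb1, and 35 peaks of the list were at least as wide. Peaks reached over 50% or more of the gene with its 1 kb flanks at 16 members, among them Foxb2 (100%), Foxc1 (96.8%), Foxe1 (96.3%), Foxd1 (95.6%) and Foxf1 (85.1%). At the long genes they covered a small share: 0.444% at Foxp2, a gene of 540629 bp with 1 peak of 5348 bp across an end, and 0.916% at Foxp1 with 4 peaks. The 10 members with no peak were Foxh1, Foxi1, Foxk2, Foxm1, Foxn1, Foxo4, Foxp3, Foxr1, Foxr2 and Foxs1, and the nearest peak to Foxr2 was 2490285 bp away.

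Promoter sequences, from 250 bases before to 50 bases after the start, were at hand in RefSeq (GRCm38.p6, the assembly of mm10) for 28 of the 44 members, with 33 promoters. They held a median of 22 CG dinucleotides in 300 bases, against 7 in all 32851 promoters of the table. The 24 Fox promoters with a Suz12 peak within 1 kb had a median of 25.5 CG, and the 9 without one had a median of 6 with a range of 3 to 59. The forkhead word TGTTTAC, read on both strands as TGTTTAC or GTAAACA, was in 1 of the 33 (3.03%) and in 3.65% of all promoters. Shown are 4 that span this range, with CG in capitals. Foxa1 (chr12:57546062-57546361, minus strand) has a peak, 26 CG and the only match to the forkhead word. Foxd1 (chr13:98353995-98354294, plus strand) has a peak and 15 CG. Foxk2 (chr11:121259737-121260036, plus strand) has no peak but 59 CG, a number that 0.1% of all promoters reach, and Foxr2 (chrX:153118538-153118837, plus strand) has no peak and 3 CG.
Foxa1: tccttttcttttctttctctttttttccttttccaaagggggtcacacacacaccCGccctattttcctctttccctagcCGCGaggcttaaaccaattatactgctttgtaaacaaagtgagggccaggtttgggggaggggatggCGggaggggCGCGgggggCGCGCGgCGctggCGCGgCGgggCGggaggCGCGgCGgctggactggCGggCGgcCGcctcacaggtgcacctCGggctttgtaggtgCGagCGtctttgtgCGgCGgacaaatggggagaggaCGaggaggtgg
Foxd1: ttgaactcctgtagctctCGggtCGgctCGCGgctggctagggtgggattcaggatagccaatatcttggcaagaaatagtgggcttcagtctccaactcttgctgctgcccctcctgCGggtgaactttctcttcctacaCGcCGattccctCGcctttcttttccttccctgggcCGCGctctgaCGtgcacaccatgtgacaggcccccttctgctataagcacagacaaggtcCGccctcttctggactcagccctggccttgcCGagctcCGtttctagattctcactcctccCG
Foxk2: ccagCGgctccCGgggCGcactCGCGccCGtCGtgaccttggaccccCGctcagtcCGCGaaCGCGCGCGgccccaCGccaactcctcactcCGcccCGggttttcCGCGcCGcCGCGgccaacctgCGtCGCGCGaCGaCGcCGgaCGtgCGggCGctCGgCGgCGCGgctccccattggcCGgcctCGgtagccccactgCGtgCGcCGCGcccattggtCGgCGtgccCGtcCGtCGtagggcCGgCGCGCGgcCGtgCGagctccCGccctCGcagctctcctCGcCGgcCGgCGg
Foxr2: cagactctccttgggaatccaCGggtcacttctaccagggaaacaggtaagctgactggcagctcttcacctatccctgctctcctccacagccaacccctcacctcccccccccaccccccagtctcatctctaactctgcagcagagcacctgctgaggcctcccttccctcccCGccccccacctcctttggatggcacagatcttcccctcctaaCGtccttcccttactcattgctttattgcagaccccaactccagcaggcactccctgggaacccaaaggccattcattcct

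In dKO against WT, 14 Fox genes rose, 10 fell and 4 did not pass, which is 85.7% of the 28 tested called where 64.7% of all 14145 genes were called (edgeR quasi-likelihood test, Benjamini-Hochberg adjusted p under 0.05 over all genes). By direction, 33.7% of all genes rose and 31.0% fell. Their median log2 fold change was 0.15 (all genes 0.00) and their median size of change, without sign, was 0.93 (all genes 0.41). The 3 libraries of each group did not overlap for 24 of 28 members, as for 68.0% of all genes. In rescue against dKO, 11 rose, 10 fell and 7 did not pass (75% called, all genes 70.3%, with 32.1% higher and 38.2% lower), with a median of -0.01 (all genes -0.04) and no overlap for 20 members (all genes 71.7%). In rescue against WT, 12 rose, 7 fell and 9 did not pass (67.9% called, all genes 54.1%, with 26.8% higher and 27.3% lower), with a median of 0.18 (all genes 0.00) and no overlap for 21 (all genes 65.3%). Changes of over 2-fold were called for 10 members that rose and 3 that fell in dKO against WT (all genes 19.1% and 4.39%), for 5 and 6 in rescue against dKO (5.03% and 19.9%) and for 5 and 3 in rescue against WT (6.43% and 6.50%). The comparisons share libraries, so their counts are not independent. Counts for the gene and marker lists are to be read beside the same shares of all genes. The tested members are not the family: Foxa1, Foxc2, Foxd2 and Foxf1 had no WT library, and Foxr2 no dKO library, above the filter's level of 0.45 CPM, so they could pass only by being high elsewhere, while 19 were above it in every library. Foxc1 and Foxd1, among others, had 1 WT library above it and also passed only through the groups where they were high. Levels are compared between groups and not between genes, since no transcript lengths were used.

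**Figure D1:**
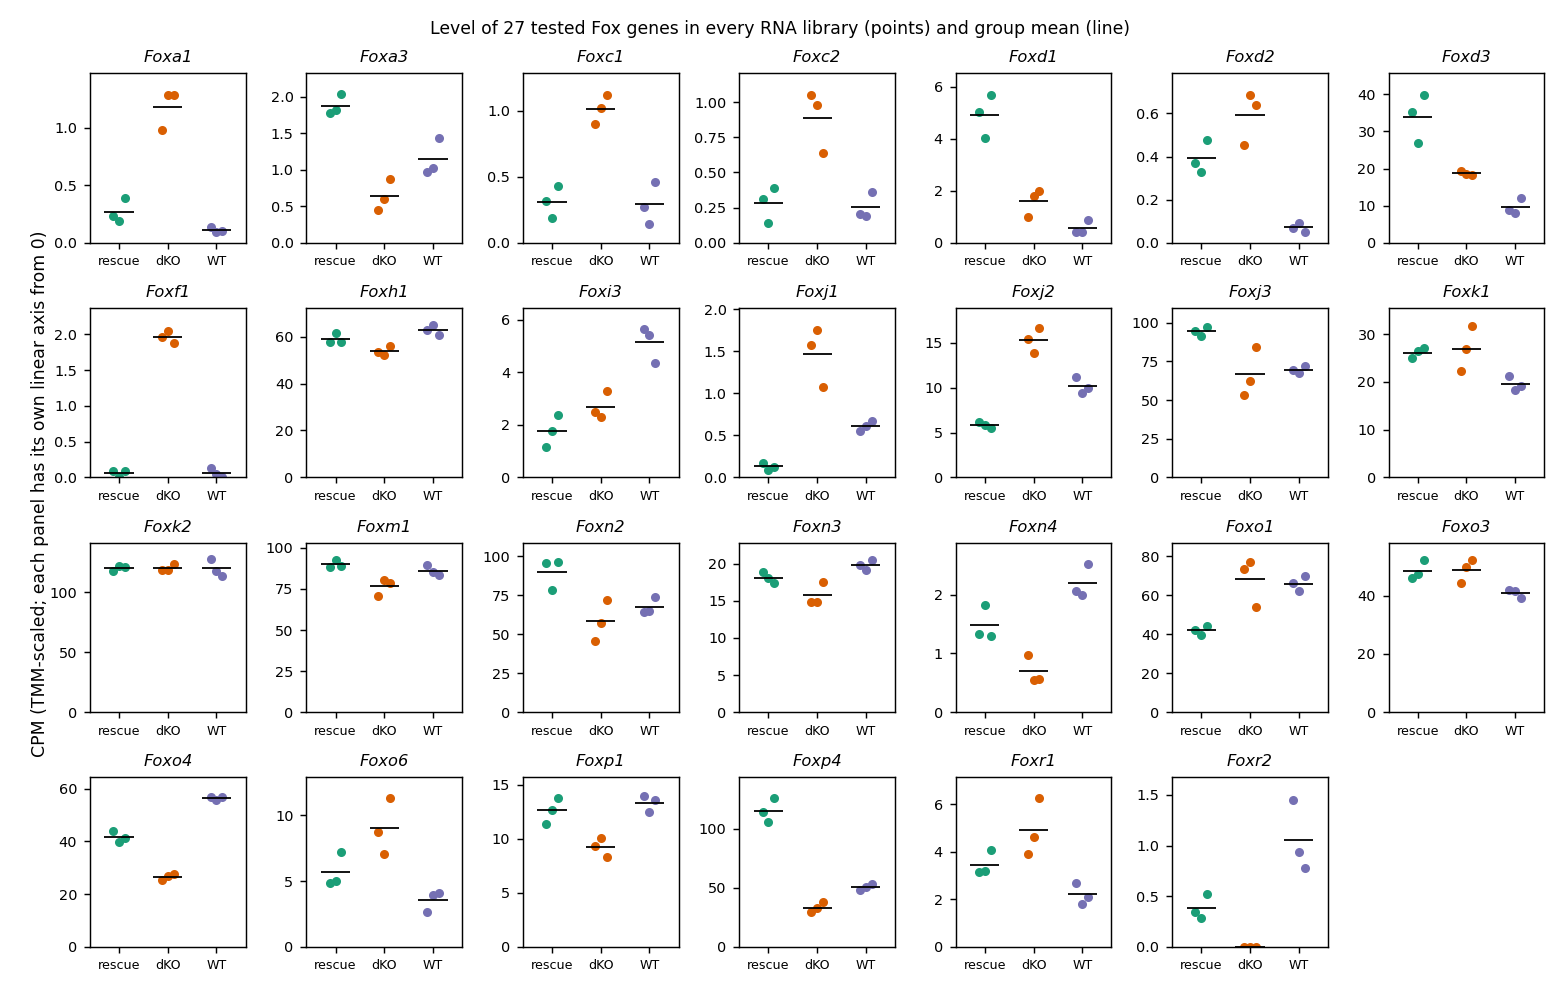
Level in CPM (linear axes from 0, a separate axis for each gene) of 27 of the 28 tested Fox genes in the 3 rescue, 3 dKO and 3 WT libraries, with points for libraries and a line for each group mean. Foxf1 stood near 2 CPM in dKO alone, Foxd1 and Foxp4 were highest in rescue, Foxr2 was at 0 in dKO, and Foxk2 was level across the groups.

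**Figure D2:**
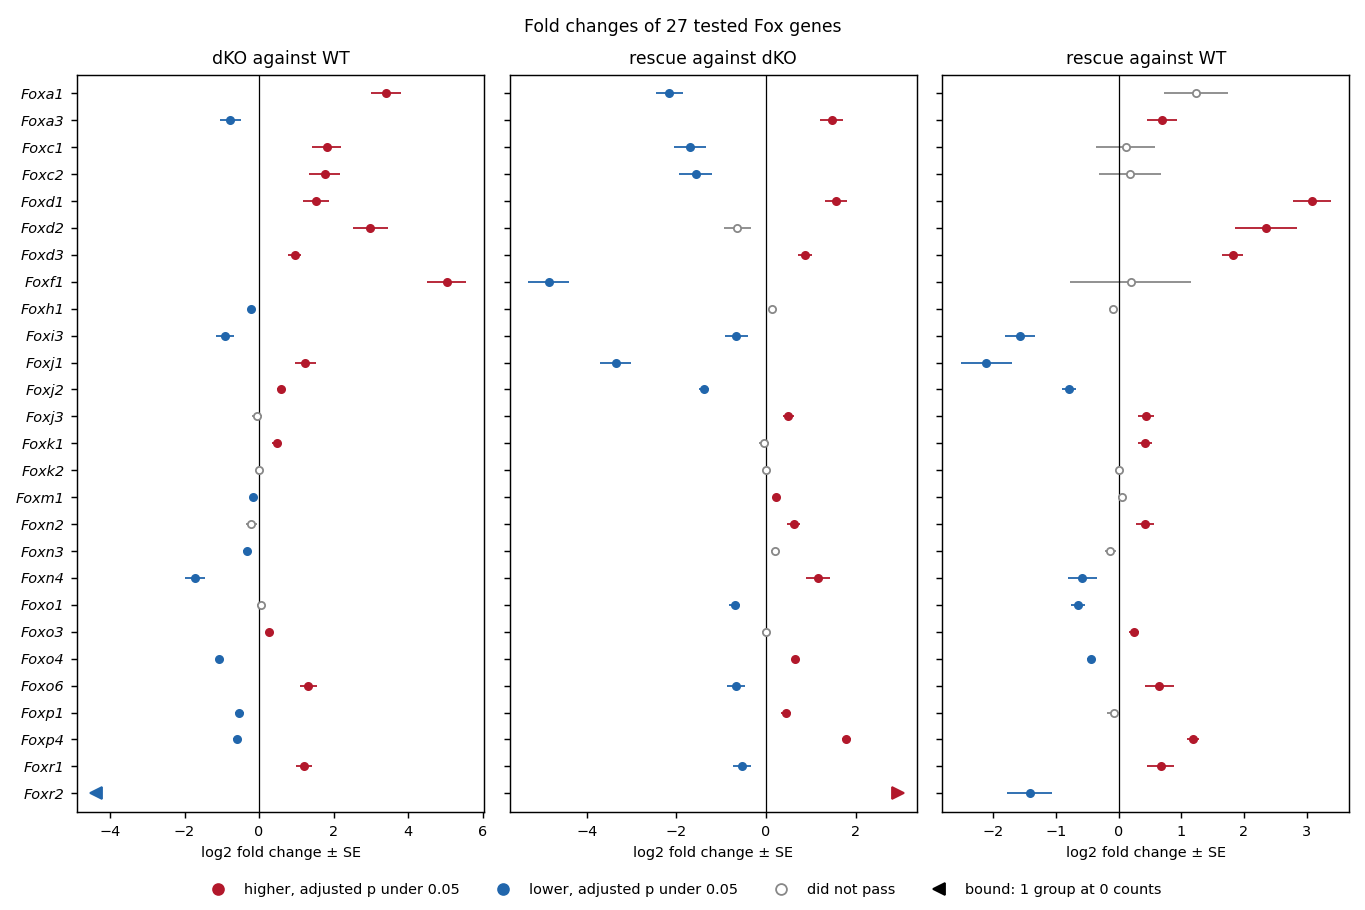
Log2 fold change with its SE for 27 of the 28 tested Fox genes in dKO against WT, rescue against dKO and rescue against WT (edgeR, n = 3 libraries a group), filled red for higher and blue for lower at adjusted p under 0.05 and open where the test was not passed. The triangles give Foxr2 at its bound, at least 20.8-fold lower in dKO than in WT and at least 7.76-fold higher in rescue than in dKO, since it had 0 counts in dKO.

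Read across the 3 comparisons, 27 of the 28 members were called at least once, 12 in all 3, and Foxk2 in none. Of all 14145 genes, 87% were called at least once, 25.4% in all 3 comparisons and 13% in none. Of the 14 that rose in dKO, 8 fell in rescue against dKO and 8 were higher in rescue than in WT, where the shares of all genes that rose in dKO were 77.9% and 35.8%. Of the 10 that fell in dKO, 7 rose in rescue against dKO and 4 were also lower in rescue than in WT, where the shares of all genes that fell in dKO were 64.7% and 40.8%. Foxa1, Foxc1, Foxc2 and Foxf1 were higher in dKO than in WT, lower in rescue than in dKO and did not pass in rescue against WT. Foxd2, Foxk1 and Foxo3 were higher than WT in dKO and in rescue, with no call between rescue and dKO. Foxd1 and Foxd3 were higher in every comparison, dKO above WT and rescue above dKO, and Foxi3 was lower in every comparison.

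FoxA proteins are pioneer factors of endoderm that open closed chromatin at liver, lung and gut genes. Foxa1 (chr12:57540628-57548029) was at 0.229, 0.187 and 0.389 CPM in rescue, 0.979, 1.28 and 1.28 CPM in dKO and 0.138, 0.0933 and 0.103 CPM in WT. All 3 dKO libraries stood above the other 6, and the rescue libraries stood above WT without overlap. It rose by 3.40 ± 0.398 in dKO against WT (log2 fold change ± SE, edgeR Benjamini-Hochberg adjusted p = 1.26e-05), a change of 10.6-fold on 75 counts in dKO and 6 in WT. In rescue relative to dKO, it fell by 2.16 ± 0.304 (adjusted p = 4.89e-05), and in rescue against WT it was at 1.24 ± 0.51 without passing (adjusted p = 0.0678). The gene overlaps Ttc6 by 1326 bp, and Ttc6 is not among the genes named in the files used, so without strand reads of Ttc6 in that stretch could not be told apart. Foxa3 (chr7:19013283-19023539), a liver and gut factor, went the other way, at 1.77, 1.82 and 2.03 CPM in rescue, 0.452, 0.597 and 0.878 CPM in dKO and 0.964, 1.03 and 1.44 CPM in WT. Its 3 groups did not overlap, with rescue at the top and dKO at the bottom. It fell by 0.77 ± 0.288 in dKO against WT (adjusted p = 0.0325) and rose by 1.47 ± 0.258 in rescue against dKO (adjusted p = 0.000282) and by 0.69 ± 0.24 in rescue against WT (adjusted p = 0.0279). The call in dKO against WT was lost without dKO replicate 1 (adjusted p = 0.0875), dKO replicate 2 (0.0983) or WT replicate 3 (0.145), with DESeq2 (0.0658) and with those groups alone in the fit (0.0599). The call in rescue against WT ended when rescue replicate 1, 2 or 3 was left out (0.0549, 0.0514 and 0.0833), without WT replicate 1 (0.0933) or 2 (0.107) and with DESeq2 (0.0641). Foxa2, the node and endoderm factor, had too few counts to test, 15 in rescue, 17 in dKO and 6 in WT, although a peak of 4236 bp lies over it.

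Among 17 genes of endoderm that FoxA factors are known to work with, 10 were tested in dKO against WT and 8 rose, 1 fell and 1 did not pass (median 2.33 on the log2 scale, all genes 0.00, with 33.7% higher and 31.0% lower). The keratin Krt18 rose by 3.17, and the endoderm factors Gata6 by 4.28 and Gata4 by 2.43 (edgeR Benjamini-Hochberg adjusted p = 5.54e-08, 6.24e-08 and 4.74e-07), while the lipoprotein Apob was at 1.02 without passing (0.134). With rescue set against dKO, 1 rose, 7 fell and 2 did not pass, and in rescue against WT 5 rose and 5 did not pass. Their levels summed to 47.3 to 48.8 CPM in rescue, 114 to 141 CPM in dKO and 32.4 to 36.9 CPM in WT, and Cer1 was at 0 in every library. A list of 13 endoderm cell markers, which shares Sox17, Gata4, Gata6, Afp and Ttr with it, had 9 higher, 1 lower and 1 not passed of 11 tested in dKO against WT. Its sum was 1030 to 1130 CPM in rescue, 830 to 1070 CPM in dKO and 1190 to 1280 CPM in WT, and no marker was at 0 throughout. Most of that sum was Apoe, the marker that fell, at 927 to 1030 CPM in rescue, 528 to 737 CPM in dKO and 1100 to 1190 CPM in WT. The other 12 markers summed to 94.9 to 102 CPM in rescue, 302 to 351 CPM in dKO and 86.7 to 89.7 CPM in WT, highest in dKO. Its part in the FoxA result was not tested.

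The FoxC and FoxF genes act in mesoderm and mesenchyme, Foxc1 and Foxc2 in vessels, eye and skeleton and Foxf1 in the mesenchyme of lung and gut. Foxf1 (chr8:121084386-121088154) was at 0.0857, 0 and 0.0865 CPM in rescue, 1.96, 2.05 and 1.88 CPM in dKO and 0.138, 0.0466 and 0 CPM in WT. Rescue and WT libraries overlapped near 0 and all dKO libraries stood apart from them. On counts this is 5 in rescue, 121 in dKO and 3 in WT, a ratio of 36.2 between dKO and WT with an exact 95% interval of 12.1 to 178 that covers counting error only. The fit gave 5.03 ± 0.517 in dKO against WT (edgeR Benjamini-Hochberg adjusted p = 4.32e-06), a value that depends on the prior count at so few WT counts, and -4.85 ± 0.455 in rescue against dKO (1.67e-06). In rescue against WT, with 5 and 3 counts, no difference was detectable at this depth (adjusted p = 0.886). Foxc1 (chr13:31806646-31810635) was at 0.314, 0.187 and 0.432 CPM in rescue, 0.904, 1.02 and 1.12 CPM in dKO and 0.275, 0.140 and 0.464 CPM in WT. Rescue and WT overlapped and dKO lay above both. It rose by 1.81 ± 0.395 in dKO against WT (adjusted p = 0.00159) and fell by 1.70 ± 0.358 in rescue against dKO (adjusted p = 0.00109), and was at 0.11 ± 0.468 in rescue against WT (0.856). Foxc2 (chr8:121116171-121118895) showed the same order at 0.281 ± 0.128 CPM in rescue, 0.892 ± 0.222 CPM in dKO and 0.251 ± 0.0955 CPM in WT (SD, n = 3), 1.76 higher in dKO than in WT (edgeR adjusted p = 0.00283) and 1.57 lower in rescue than in dKO (0.00248) on the log2 scale.

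Foxf1, Foxc2 and Foxl1 lie together within 46.3 kb of chromosome 8, and Foxq1, Foxf2 and Foxc1 within 252 kb of chromosome 13. Suz12 peaks covered 29.1% of the stretch on chromosome 8, with 5 peaks, and 6.41% of that on chromosome 13, with 7. Not every member of a cluster was detected at this depth: Foxl1, known from gut mesenchyme, had 0 counts in all 9 libraries beside Foxc2 and Foxf1, although a peak of 1957 bp lies over it. On chromosome 13 Foxf2 had 1 count in rescue, 3 in dKO and 0 in WT, and Foxq1, known from the hair shaft, had 14, 32 and 12 counts in rescue, dKO and WT. Neither passed the filter. Fendrr, the long RNA known to start beside Foxf1, was also at 0 in every library.

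**Figure D3:**
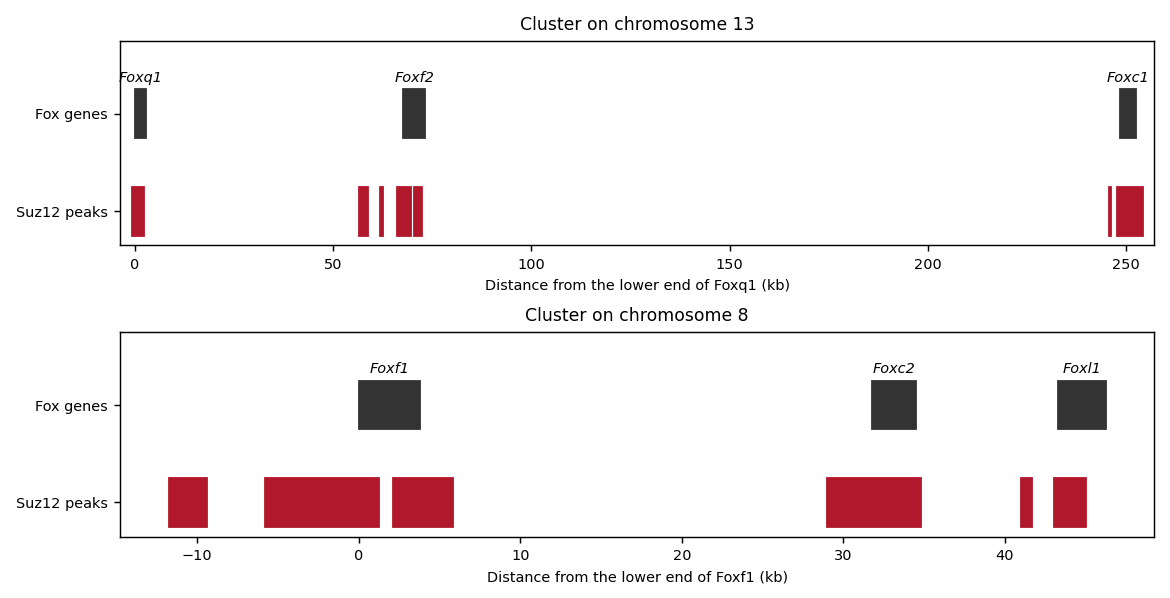
Map to scale of the Fox clusters on chromosomes 13 and 8 (black, genes; red, Suz12 peaks of wild-type 129B6F1 cells), with distance in kb from the lower end of Foxq1 or Foxf1. Each of the 6 genes is overlapped by at least 1 peak, and further peaks lie between Foxq1 and Foxf2 and ahead of Foxf1.

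Of 16 genes of mesenchyme and its vessels that FoxC and FoxF are known to act beside, 11 were tested and in dKO against WT 8 rose, 1 fell and 2 did not pass (median 1.85, all genes 0.00, with 33.7% higher and 31.0% lower). The endothelial adhesion molecule Pecam1 fell by 0.68, whereas the receptor Pdgfrb rose by 1.85 and Bmp4 by 3.46 (edgeR Benjamini-Hochberg adjusted p = 2.4e-07, 1.12e-06 and 1.04e-05), and Tbx18 was at 0.59 without passing (0.0658). For rescue against dKO, 3 rose, 4 fell and 4 did not pass, and in rescue against WT 6 rose and 5 did not pass. Levels of the 16 genes summed to 238 to 246 CPM in rescue, 160 to 176 CPM in dKO and 226 to 232 CPM in WT, lowest in dKO. Most of that sum was Pecam1, at 210 ± 4.46, 135 ± 2.65 and 216 ± 3.42 CPM in rescue, dKO and WT (SD, n = 3). Of 12 fibroblast markers, 6 were tested and 5 rose and 1 fell in dKO against WT, with sums of 141 to 146 CPM in rescue, 69.8 to 82.1 CPM in dKO and 335 to 355 CPM in WT, and Lum and S100a4 were at 0 in every library. The marker that fell was Vim, at 134 ± 2.1 CPM in rescue, 20.7 ± 8.26 CPM in dKO and 343 ± 10.1 CPM in WT (SD, n = 3), and the other 11 summed to 8.75 to 9.34 CPM in rescue, 51.9 to 58.2 CPM in dKO and 3.56 to 5.58 CPM in WT. Of 10 mesoderm markers 7 were tested, 5 rose, 1 fell and 1 did not pass, with sums of 11.6 to 12.7 CPM in rescue, 47.3 to 71.2 CPM in dKO and 6.24 to 7.09 CPM in WT. Their part in the FoxC and FoxF results was not tested.

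The FoxD genes did not follow that order. Foxd3 (chr4:99656299-99658671), needed for the maintenance of mouse ES cells and for neural crest, was at 35.1, 26.9 and 39.9 CPM in rescue, 19.4, 18.5 and 18.2 CPM in dKO and 8.81, 7.97 and 12.1 CPM in WT. The 3 groups did not overlap, with dKO above WT and rescue above dKO. It rose by 0.95 ± 0.168 in dKO against WT (edgeR Benjamini-Hochberg adjusted p = 0.000366), by 0.87 ± 0.153 in rescue against dKO (0.00031) and by 1.82 ± 0.164 in rescue against WT (4.17e-06). Foxd1 (chr13:98354245-98356705), a factor of kidney stroma and of the retina, was at 5.03, 4.02 and 5.66 CPM in rescue, 0.979, 1.79 and 2.00 CPM in dKO and 0.413, 0.420 and 0.877 CPM in WT. These groups also stood in 3 separate ranges. The rise was 1.52 ± 0.352 in dKO against WT (adjusted p = 0.00243), 1.56 ± 0.25 in rescue against dKO (0.000136) and 3.08 ± 0.305 in rescue against WT (7.82e-06), where the fold was 8.44. Foxd2 (chr4:114906280-114908898) was at 0.372, 0.327 and 0.476 CPM in rescue, 0.452, 0.683 and 0.639 CPM in dKO and 0.0689, 0.0933 and 0.0516 CPM in WT. Rescue overlapped dKO, and both lay above WT. It rose by 2.98 ± 0.466 in dKO against WT (adjusted p = 0.000133) and by 2.35 ± 0.493 in rescue against WT (0.00175), with -0.64 ± 0.303 in rescue against dKO not passing (0.0792). Its neighbour Foxd2os, a long RNA, had 8 counts in rescue, 34 in dKO and 4 in WT and did not pass the filter, and Foxd4 had 2, 4 and 1.

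Foxn4 (chr5:114254164-114274418), a factor of retinal and spinal interneurons, was at 1.34, 1.82 and 1.30 CPM in rescue, 0.979, 0.555 and 0.559 CPM in dKO and 2.07, 2.00 and 2.53 CPM in WT. Here dKO was lowest, WT highest and the groups did not overlap. It fell by 1.73 ± 0.27 in dKO against WT (edgeR Benjamini-Hochberg adjusted p = 0.000129) and rose by 1.16 ± 0.274 in rescue against dKO (0.00241). In rescue against WT it fell by 0.58 ± 0.229 (0.0492), a call that ended when WT replicate 1, 2 or 3 was left out (0.0793, 0.072 and 0.175), without rescue replicate 1 (0.16) or 3 (0.146) or dKO replicate 2 (0.0516), with DESeq2 (0.121), with RLE factors (0.0546) and with no filter (0.0607). Of 15 neural genes known beside Fox factors 9 were tested, and in dKO against WT 6 rose, 2 fell and 1 did not pass (median 2.22, all genes 0.00, with 33.7% higher and 31.0% lower). The progenitor filament Nes rose by 2.53, Lhx2 by 2.09 and the neural crest factor Sox10 by 5.30 (adjusted p = 1.55e-09, 5.17e-07 and 1.69e-06), and Sox1 was at -0.29 without passing (0.121). In rescue relative to dKO, 1 rose, 5 fell and 3 did not pass, and in rescue against WT 4 rose, 1 fell and 4 did not pass. A list of 10 neural cell markers, which shares Pax6, Sox1, Nes and Tubb3 among others with it, had 5 higher, 1 lower and 1 not passed of 7 tested in dKO against WT. It summed to 210 to 217 CPM in rescue, 219 to 250 CPM in dKO and 82.7 to 94.1 CPM in WT, Dcx was at 0 in every library, and its part in these results was not tested.

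Foxi3 (chr6:70956606-70961066), a factor of the ectodermal placodes, was at 1.17, 1.77 and 2.38 CPM in rescue, 2.49, 2.30 and 3.31 CPM in dKO and 5.65, 5.41 and 4.38 CPM in WT. WT stood above the other groups, while rescue and dKO overlapped. It fell by 0.91 ± 0.235 in dKO against WT (edgeR Benjamini-Hochberg adjusted p = 0.00468) and by 1.57 ± 0.241 in rescue against WT (0.000209). The fall of 0.66 ± 0.255 in rescue against dKO (0.0363) was lost without rescue replicate 1 (-0.38, 0.179), rescue replicate 2 (0.0677), dKO replicate 3 (0.121) or WT replicate 2 (0.0516), and with those groups alone in the fit (0.0787). Foxi1, known from the inner ear and the kidney's intercalated cells, did not pass the filter, with 1 count in rescue, 14 in dKO and 0 in WT, which is at least 4.18-fold higher in dKO than in WT when 3 counts stand for the 0, with an exact 95% limit of 2.97-fold once the error of the 14 counts is included.

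FoxJ1 switches on the genes of motile cilia. Foxj1 (chr11:116330704-116335499) was at 0.171, 0.0934 and 0.130 CPM in rescue, 1.58, 1.75 and 1.08 CPM in dKO and 0.551, 0.606 and 0.670 CPM in WT. Each group held its own range, with dKO at the top and rescue at the bottom. It rose by 1.24 ± 0.282 in dKO against WT (edgeR Benjamini-Hochberg adjusted p = 0.00211) and fell by 3.35 ± 0.344 in rescue against dKO (3.54e-06) and by 2.11 ± 0.407 in rescue against WT (0.001), on 11, 89 and 34 counts in rescue, dKO and WT. Foxj2 (chr6:122820184-122845366) had the same order at a level with far more counts, 6.20, 5.88 and 5.53 CPM in rescue, 15.4, 13.8 and 16.6 CPM in dKO and 11.2, 9.42 and 10.0 CPM in WT. Its groups did not overlap, and its values were 0.59 ± 0.11 in dKO against WT (adjusted p = 0.000539), -1.38 ± 0.112 in rescue against dKO (5.28e-07) and -0.79 ± 0.115 in rescue against WT (0.000145). Foxj3 was at 94.6, 91.3 and 97.4 CPM in rescue, 53.1, 62.3 and 84.2 CPM in dKO and 69.7, 67.3 and 72.2 CPM in WT. The dKO libraries spread around WT, and rescue stood above all of them. It rose by 0.50 in rescue against dKO and by 0.44 in rescue against WT (adjusted p = 0.00404 and 0.0123). In dKO against WT its -0.06 did not pass (0.7), although without dKO replicate 3 it was at -0.27 and passed (0.00344). Of 20 motile cilium genes 15 were tested, and in dKO against WT 6 rose, 1 fell and 8 did not pass (median 0.50, all genes 0.00, with 33.7% higher and 31.0% lower). The assembly factor Ccdc40 rose by 3.05, the tubulin Tubb4b by 0.50 and the dynein chain Dnaic2 by 1.51 (adjusted p = 4.83e-08, 4.22e-05 and 4.27e-05), and Dnah5 was at 0.87 without passing (0.0502). With rescue set against dKO, 2 rose, 8 fell and 5 did not pass, and in rescue against WT 4 rose, 5 fell and 6 did not pass.

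FoxH1 binds DNA together with Smad2 or Smad3 below the Nodal receptor. Foxh1 was at 57.8, 61.3 and 57.6 CPM in rescue, 53.5, 52.2 and 55.8 CPM in dKO and 62.7, 65.0 and 60.6 CPM in WT. The dKO libraries were lowest, by a margin of a few CPM, and rescue and WT overlapped. It fell by 0.22 ± 0.0621 in dKO against WT (edgeR Benjamini-Hochberg adjusted p = 0.00773). In rescue against dKO, 0.13 did not pass (0.0792), but passed with RLE factors (0.0437), DESeq2 (0.0447), less the chromosome's median (0.0361) and without dKO replicate 3 (0.0287). Foxh1 overlaps Kifc2 by 368 bp, and reads there cannot be told apart without strand. Of 14 genes of the Nodal and Smad pathway, all tested, 9 rose, 2 fell and 3 did not pass in dKO against WT (median 0.46, all genes 0.00, with 33.7% higher and 31.0% lower). The Nodal antagonist Lefty2 rose by 3.21 and Smad3 itself by 0.80 (adjusted p = 5.68e-10 and 5.81e-07), and the receptor Acvr2a was at 0.10 without passing (0.436). The 2 that fell were Nodal itself, by 0.65, and Eomes, by 0.24 (adjusted p = 1.09e-05 and 0.0387). For rescue against dKO, 6 rose, 5 fell and 3 did not pass, and in rescue against WT 10 rose, 1 fell and 3 did not pass.

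FoxO proteins stay in the nucleus and switch on stress and metabolic genes until Akt phosphorylates them. Foxo4 (chrX:101254261-101260873) was at 43.9, 39.8 and 41.3 CPM in rescue, 25.4, 26.8 and 27.7 CPM in dKO and 56.9, 55.5 and 56.8 CPM in WT. Rescue lay between dKO and WT and no group overlapped another. It fell by 1.08 ± 0.0674 in dKO against WT (edgeR Benjamini-Hochberg adjusted p = 6.64e-08), rose by 0.64 ± 0.0671 in rescue against dKO (3.97e-06) and fell by 0.44 ± 0.0651 in rescue against WT (0.000168). Foxo6 (chr4:120267078-120287261), the FoxO of the brain, was at 4.89, 5 and 7.22 CPM in rescue, 8.74, 7.08 and 11.3 CPM in dKO and 2.62, 3.96 and 4.13 CPM in WT. WT was lowest without overlap, and the top rescue library reached into the dKO range. It rose by 1.32 ± 0.228 in dKO against WT (adjusted p = 0.00029), and fell by 0.67 in rescue against dKO (0.0126), a call lost without rescue replicate 1 (0.0629). Its rise of 0.65 in rescue against WT (0.0326) was lost without rescue replicate 3 (0.14), WT replicate 1 (0.119) or WT replicate 2 (0.0545).

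Foxo1 (chr3:52268337-52350109) was at 42.0, 39.4 and 44.4 CPM in rescue, 73.2, 77.2 and 54.1 CPM in dKO and 66.0, 62.1 and 69.6 CPM in WT. All rescue libraries were below the rest, and dKO replicate 3 lay below WT while the other dKO libraries lay above it. It fell by 0.70 ± 0.115 in rescue against dKO and by 0.65 ± 0.115 in rescue against WT (edgeR Benjamini-Hochberg adjusted p = 0.000177 and 0.000569). The 650 other tested genes of chromosome 3 had medians of -0.43 and -0.40 in those comparisons, and the 30 within 5 Mb of Foxo1 had -0.75 and -0.35. Less the chromosome's median Foxo1 was at -0.27 (adjusted p = 0.0043) and -0.23 (0.0168), and less that of its 5 Mb neighbours at 0.05 and -0.30. The part of the chromosome's copy number was not tested. In dKO against WT, 0.05 did not pass (0.741), and without dKO replicate 3 it was 0.19 and passed (0.0228). There the chromosome's median was -0.03 and that of the 30 genes within 5 Mb was 0.45. Less the median of those neighbours, Foxo1 was at -0.4. Foxo3 was at 46.0, 47.5 and 52.1 CPM in rescue, 44.3, 50 and 52.3 CPM in dKO and 41.8, 41.7 and 39.2 CPM in WT. Rescue and dKO overlapped above WT. It rose by 0.26 in dKO against WT (0.0118) and by 0.25 in rescue against WT (0.0192), and the second call was lost without rescue replicate 3 (0.0877) or WT replicate 3 (0.0664).

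Of 13 regulators of FoxO, all tested, 6 rose, 3 fell and 4 did not pass in dKO against WT (median 0.19). Of all genes, 33.7% rose and 31.0% fell in that comparison. The kinase gene Akt1 rose by 0.86 and Sgk1 fell by 1.02 (edgeR Benjamini-Hochberg adjusted p = 7.16e-07 and 7.4e-05), and Pdpk1 was at -0.16 without passing (0.0934). In rescue against dKO 5 rose, 4 fell and 4 did not pass, and in rescue against WT 8 rose, 2 fell and 3 did not pass. Of 15 genes known as FoxO targets, 7 rose and 8 fell in dKO against WT (median -0.31). The antioxidant enzymes Sod2 and Cat fell by 0.74 and 0.95, and the growth-arrest gene Gadd45a by 1.47 (adjusted p = 1.39e-07, 1.63e-06 and 1.51e-07). In rescue relative to dKO, 6 rose, 6 fell and 3 did not pass, and in rescue against WT 5 rose, 6 fell and 4 did not pass.

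FoxM1 drives the genes of mitosis. Foxm1 was at 88.1, 92.8 and 89.1 CPM in rescue, 70.9, 80.3 and 78.7 CPM in dKO and 89.9, 85.3 and 83.3 CPM in WT. The dKO libraries were lowest, close below WT, and rescue overlapped WT. It rose by 0.23 ± 0.064 in rescue against dKO (edgeR Benjamini-Hochberg adjusted p = 0.00671). Its fall of 0.17 ± 0.0645 in dKO against WT (0.0395) ended when WT replicate 1, 2 or 3 was left out (0.13, 0.072 and 0.0509), without dKO replicate 1 (-0.11, 0.144), rescue replicate 1 (0.0508) or rescue replicate 3 (0.0512), with those groups alone in the fit (0.0747) and among genes with a mean of at least 2 CPM (-0.10, 0.181). The gene overlaps Tex52, which is not named in the files used, by 377 bp. Of 15 cell-division targets of FoxM1, 5 rose, 3 fell and 7 did not pass in dKO against WT (median 0.07), where 33.7% of all genes rose and 31.0% fell. The spindle checkpoint gene Bub1b fell by 0.38, while Cenpf rose by 0.50 and Birc5 by 0.34 (adjusted p = 2.48e-05, 0.000218 and 0.000921), and Aurka was at 0.14 without passing (0.0541). With rescue set against dKO, 1 rose, 9 fell and 5 did not pass, and in rescue against WT 8 fell and 7 did not pass.

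FoxP proteins are repressors, and the group includes the regulator of T cells, Foxp3. Foxp4 (chr17:47867133-47924632), known from the lung and gut epithelium, was at 114, 106 and 126 CPM in rescue, 29.1, 32.8 and 37.8 CPM in dKO and 47.8, 50.6 and 53.3 CPM in WT. The ranges were far apart, with rescue above WT and WT above dKO. It fell by 0.60 ± 0.0974 in dKO against WT (edgeR Benjamini-Hochberg adjusted p = 0.000182) and rose by 1.79 ± 0.0967 in rescue against dKO (1.74e-08) and by 1.19 ± 0.0944 in rescue against WT (1.54e-06). Foxp1 was at 11.4, 12.7 and 13.8 CPM in rescue, 9.34, 10.1 and 8.30 CPM in dKO and 14, 12.5 and 13.6 CPM in WT. Its dKO libraries were lowest and rescue overlapped WT, with a fall of 0.53 ± 0.113 in dKO against WT (0.00133) and a rise of 0.45 ± 0.112 in rescue against dKO (0.00317). Foxp2 had 3 counts in rescue, 7 in dKO and 2 in WT, and Foxp3 had 12, 7 and 0, which is at least 2.78-fold higher in rescue than in WT when 3 counts stand for the 0, with an exact 95% limit of 1.93-fold once the error of the 12 counts is included. Foxp3 overlaps Ccdc22 by 1435 bp, and reads in that stretch cannot be told apart from those of Ccdc22.

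FoxK proteins bring the deubiquitinase Bap1 and Sin3 complexes to chromatin. Foxk2 was at 118, 122 and 121 CPM in rescue, 119, 119 and 124 CPM in dKO and 128, 118 and 114 CPM in WT. All groups overlapped, and its log2 fold changes were 0.01 ± 0.0585, 0.00 ± 0.0581 and 0.01 ± 0.0582 in dKO against WT, rescue against dKO and rescue against WT (edgeR Benjamini-Hochberg adjusted p = 0.906, 0.981 and 0.928). Foxk1 was at 24.9, 26.4 and 27 CPM in rescue, 22.2, 26.8 and 31.6 CPM in dKO and 21.3, 18.3 and 19.2 CPM in WT. WT was lowest, and dKO spread over the rescue range. It rose by 0.47 in dKO against WT (0.00379) and by 0.42 in rescue against WT (0.00965). Of 13 partners of FoxK and FoxP 12 were tested, and in dKO against WT 2 rose, 7 fell and 3 did not pass (median -0.23, all genes 0.00, with 33.7% higher and 31.0% lower). The transcription factor Nfatc2 rose by 1.44, and Asxl2 and Sin3b fell by 0.56 and 0.30 (adjusted p = 6.74e-05, 0.000123 and 0.000321), with Ogt at -0.11 not passing (0.121). For rescue against dKO, 7 rose, 4 fell and 1 did not pass, and in rescue against WT 6 rose, 2 fell and 4 did not pass.

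Foxn3 is known in human cells as a factor of the cell-cycle checkpoint, and Foxn2 is its close relative. Foxn2 was at 95.8, 78.4 and 96.4 CPM in rescue, 45.5, 57.3 and 71.9 CPM in dKO and 64.2, 65.0 and 73.7 CPM in WT. Rescue was highest and dKO overlapped WT. It rose by 0.62 in rescue against dKO (edgeR Benjamini-Hochberg adjusted p = 0.00178), and by 0.42 in rescue against WT (0.025), a call lost without rescue replicate 1 (0.0826) or 3 (0.0822) or WT replicate 1 (0.0798) or 2 (0.0768). In dKO against WT its -0.21 did not pass (0.215), but without dKO replicate 3 it was -0.39 and passed (0.0155). Foxn3 was at 18.9, 18.1 and 17.4 CPM in rescue, 14.8, 14.9 and 17.5 CPM in dKO and 19.8, 19.2 and 20.5 CPM in WT. WT lay above the other groups, which overlapped through dKO replicate 3. It fell by 0.33 ± 0.091 in dKO against WT (0.0075), and its 0.20 in rescue against dKO did not pass (0.0631), but passed without dKO replicate 3 (0.29, 0.00478), less the chromosome's median (0.29, 0.0125) and with RLE factors (0.0437).

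The FoxR genes have no Suz12 peak and moved in opposite directions. Foxr2 (chrX:153114581-153132861), known as an oncogene in human brain tumours, was at 0.343, 0.280 and 0.519 CPM in rescue, 0 CPM in all 3 dKO libraries and 1.45, 0.933 and 0.773 CPM in WT. No groups overlapped, with WT highest. On 30 counts in rescue, 0 in dKO and 56 in WT, Foxr2 was at least 20.8-fold lower in dKO than in WT and at least 7.76-fold higher in rescue than in dKO, when 3 counts over the group stand for the 0 (edgeR Benjamini-Hochberg adjusted p = 3.22e-05 and 0.000477). These bounds leave out the counting error of the 30 and 56 counts, and with it the exact 95% limits were 16.4-fold lower in dKO than in WT and 5.93-fold higher in rescue than in dKO. In rescue against WT it fell by 1.42 ± 0.362 (0.00769). At those bounds 0 of the 27 other members lay further out, so the medians of the tested members are the same with Foxr2 at its bound. Foxr1 (chr9:44434234-44440868) was at 3.14, 3.18 and 4.06 CPM in rescue, 3.92, 4.61 and 6.27 CPM in dKO and 2.69, 1.82 and 2.11 CPM in WT. WT was lowest, and rescue overlapped dKO. It rose by 1.20 ± 0.218 in dKO against WT (0.000411). The fall of 0.54 in rescue against dKO (0.0277) was lost without rescue replicate 1 (0.108), rescue replicate 2 (0.0802) or dKO replicate 3 (-0.33, 0.104) and with those groups alone in the fit (0.0544). The rise of 0.67 in rescue against WT (0.0233) was lost without rescue replicate 3 (0.0903), WT replicate 2 (0.105) or WT replicate 3 (0.0656).

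Further genes that the files used do not name overlap Foxn1, Foxn2, Foxn3, Foxo3, Foxo6, Foxp1, Foxp2 and Foxp3, and the named Mir7231 overlaps Foxj2 by 61 bp, so reads in those stretches are uncertain too. The 16 members that did not pass the filter were Foxa2, Foxb1, Foxb2, Foxd4, Foxe1, Foxe3, Foxf2, Foxi1, Foxi2, Foxl1, Foxl2, Foxn1, Foxp2, Foxp3, Foxq1 and Foxs1. They summed to 66 counts in rescue, 133 in dKO and 33 in WT over the 3 libraries of each group, and the highest total of any was 58, for Foxq1. Foxb1, Foxe3, Foxi2 and Foxl1 had 0 counts in every library, which leaves room for levels under the limits given above. Foxl2, the ovary factor, had 7 counts in rescue, 26 in dKO and 7 in WT, beside 2, 12 and 3 of its antisense neighbour Foxl2os. Foxe1, the thyroid factor, had 4, 9 and 0 counts, the thymus factor Foxn1 had 7, 10 and 4, Foxb2 had 0, 3 and 1, and Foxs1 had 0, 1 and 0 in rescue, dKO and WT. Fitted with no filter, Foxe1, Foxi1, Foxl2 and Foxp3 passed in dKO against WT (edgeR Benjamini-Hochberg adjusted p = 0.0203, 0.00533, 0.0397 and 0.0485), all higher. In rescue against dKO, Foxi1, Foxl2 and Foxq1 passed as lower (0.00624, 0.00817 and 0.038), and in rescue against WT Foxp3 passed as higher (0.0272).

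Set beside the Suz12 peaks, the calls in dKO against WT are given by peak width, in classes chosen with these values known and with no test. Of the 17 members whose widest peak was at least 3000 bp, 9 were tested, 8 rose, among them Foxa1, Foxc1, Foxc2, Foxd1, Foxd2, Foxd3 and Foxf1, and Foxi3 fell. Among all placed genes with a peak this wide, 331 were tested and 76.4% rose and 8.76% fell. With the untested members included, the dKO mean was above the WT mean in 15 of these 17, below it for Foxi3 and 0 in both groups for Foxb1, although several rest on a few counts. Over all 539 placed genes with a peak this wide, tested or not, it was above WT in 79.4% and below in 11.5%. Of the 17 with a narrower peak, 13 were tested and 5 rose, 5 fell and 3 did not pass (of 4114 such genes tested, 55.1% rose and 17.6% fell), with the dKO mean above WT in 7, below in 7 and at 0 in both for 3. Over all 5334 placed genes with such a peak, the dKO mean was above WT in 68.9% and below in 26.1%. Of the 10 with no peak, 6 were tested and Foxr1 rose, 4 fell (Foxh1, Foxm1, Foxo4 and Foxr2) and Foxk2 did not pass (of 9657 such genes tested, 23.1% rose and 37.5% fell). Over all 10, the dKO mean was above the WT mean in 6 and below it in 4, a split unlike that of the 6 tested. Of all 18216 placed genes with no peak, it was above in 32.9% and below in 37.2%. Members low in WT, such as Foxa1, Foxc1, Foxc2, Foxd1, Foxd2 and Foxf1, could enter the test only by being higher in another group. Of the wide-peak members tested, only Foxd3 and Foxi3 were above the filter's level in every library. That part in the counts was not tested. Close to the 3000 bp limit lay Foxi3 inside it at 3374 bp and Foxq1 outside it at 2877 bp.

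**Figure D4:**
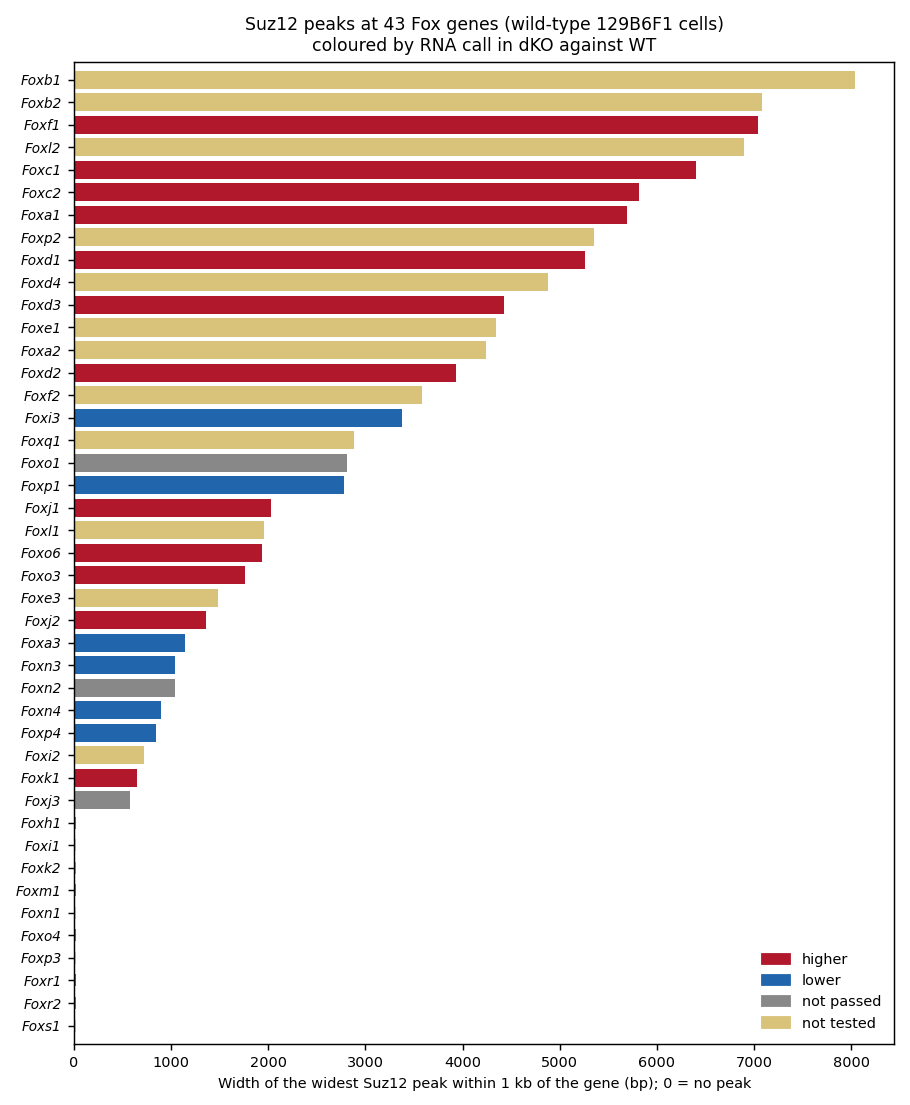
Width in bp of the widest Suz12 peak within 1 kb of the gene for 43 of the 44 Fox genes in wild-type 129B6F1 cells, ordered by width and coloured by the RNA call in dKO against WT. Of the 16 bars of at least 3000 bp, 7 are higher, 1 (Foxi3) is lower and 8 were not tested, and the 10 genes at 0 have no peak.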

How the data were processed

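Whole-number counts of reads per gene were deposited by the authors with no normalization for 9 polyA RNA libraries. Per the submitters' processing notes the tools were Trimmomatic, STAR 2.4.0 and HTSeq on mm10, and per the labels' protocols the kit was TruSeq RNA Library Prep v2, an unstranded one. How HTSeq treated overlaps, and with which annotation, is not given in the sources used here. Suz12 peaks were deposited as coordinates without a score (other values), and no caller or threshold is given in the sources used here. The other 61 samples of 71, all chromatin immunoprecipitation, were not analysed here.

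Counts were tested with edgeR 4.0.16 (R 4.3.3), using filterByExpr by group, TMM factors, robust glmQLFit and glmQLFTest in 1 fit of 9 libraries with 6 residual degrees of freedom, two-sided, with Benjamini-Hochberg adjustment over 14145 genes and a call at adjusted p under 0.05. "Rose" and "fell" are used of called genes only. The test gives no SE, so each SE is the size of the log2 fold change over the square root of its F statistic. At few counts, where the fold change depends on the prior count, this SE is only a rough guide. The scripts were tested on simulated data. Total counts ran from 12457622 to 36009529, and replicates differed by more than sampling noise (chi-square per degree of freedom 2.15 to 22.6). RefSeq's table for GRCm38.p6, the assembly of mm10, placed 22859 genes by symbol and 1230 by synonym, with 133 not placed. Coordinates are 1-based. A gene had a Suz12 peak where 1 base or more overlapped the gene with 1 kb either side. Alternatives were RLE factors, DESeq2 1.42.0, other filters, fits of 2 groups, the replicate number as a block, leaving out each library, and subtracting the chromosome's median. Library values are given for members called in any comparison with a group mean of at least 1 CPM, plus Foxd2 and Foxk2. SEs are given for the 5 largest changes each way in dKO against WT and for others added after their values were seen, and from each pathway list the 3 genes with the smallest adjusted p and 1 that did not pass. The genes that fell in dKO against WT in the Nodal list were also added after their values were seen, while those that fell in the neural list are given as a count only. Some genes that these rules name, 1 Fox gene among them, are not reported here, although the counts include them. Members, lists and limits were chosen with earlier results of these data known.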

Additional observations from a re-analysis of the deposited data

How the results depend on the processing

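Of 1308 refits of single Fox genes, 1217 kept direction and side of the threshold, 52 lost the call, 13 gained one and 26 changed sign, with no call in the reported value or the refit for those 26. With a mean of at least 2 CPM, which tests 18 members, 13 were called in dKO against WT (7 higher, 6 lower), 13 in rescue against dKO (5 lower), and 4 were lower in rescue against WT. Leaving out 1 library gave 22 to 27 called in dKO against WT (14 to 16 higher, 8 to 12 lower), 19 to 24 in rescue against dKO and 13 to 19 in rescue against WT, where 7 to 12 were higher, 7 without rescue replicate 3. With no filter, which moved the median of all genes in rescue against dKO to -0.12, 28, 24 and 19 of 40 were called in dKO against WT, rescue against dKO and rescue against WT. In dKO against WT, members were still called more often than all genes, with 11738 genes tested at 2 CPM and 18729 with no filter. The margin was narrower than the 85.7% against 64.7% of the main fit, most so at 2 CPM. Shares of all genes called under the other settings are not given here. Counting peaks at the start site gave 21 members, as only 28 have one. The sign changed for Foxk2 in dKO against WT with no filter (-0.01), less the chromosome's median (-0.09) and without 1 library (-0.02 to 0.05), and in rescue against WT less the chromosome's median (-0.05) and without 1 library (-0.03 to 0.06). Foxo3 in rescue against dKO turned to 0.01 with RLE factors, DESeq2 and no filter, 0.02 with the groups alone, and ran from -0.08 to 0.04 without 1 library. Values without 1 library also spanned 0 for Foxj3 (-0.27 to 0.07) and Foxo1 (-0.06 to 0.19) in dKO against WT, for Foxk1 (-0.16 to 0.08) in rescue against dKO, and for Foxc1 (-0.27 to 0.67), Foxc2 (-0.05 to 0.55) and Foxf1 (-0.39 to 1.18) in rescue against WT, and the cause was not tested. With the replicate number as a block 23, 21 and 18 members were called, and Foxm1 in dKO against WT (adjusted p = 0.0517) and Foxn4 in rescue against WT (0.0696) lost their calls; the numbers do not pair the libraries, since 2 of 9 same-number pairs had a correlation over 0.1 (-0.112 to 0.201) and 7 of 18 best partners shared a number. Depth limits members with a few counts, such as Foxf1 in rescue and WT.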
